A study of Mus musculus with 3 samples.

Results

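The 10 genes described here act in planar cell polarity and noncanonical Wnt reception, and were followed through mouse embryos with and without the Wnt escort Wls in the Mesp1 lineage: Vangl1, Vangl2, Prickle1, Prickle2, Celsr1, Ror1, Ror2, Ptk7, Ryk and Daam1. They were chosen by name, and all 10 were among the 51923 genes of the deposited count matrix. Sums over all cells ranged from 1525 UMIs (Celsr1) to 33879 UMIs (Ryk), and all 10 passed the filter on low counts in the main comparisons of barcode samples over all cells. A UMI is a molecular tag that counts 1 captured RNA molecule.

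The study sorted single cells of C57BL/6 embryos that carried Mesp1-Cre, a recombinase driven from the locus of an early mesoderm gene, the Ai9 reporter, which turns on red fluorescent tdTomato after recombination, and floxed Wls, whose product escorts Wnt ligands to the cell surface. Controls were Wls fl/+ and mutants Wls fl/fl, so the controls also carried the Cre, the reporter and 1 floxed allele. Mesp1-Cre is known to act in the Mesp1 lineage, and cells outside it are not its target. MULTI-seq lipid barcodes marked the cells before pooling, and the cells of 1 barcode, stage and genotype form a barcode sample. There were 12 control samples (9852 cells) and 10 mutant samples (4925 cells): 3 of each genotype at E8.0, 2 controls and 1 mutant at E8.5, 6 of each at E9.5, and 1 control of 28 cells labelled E7.5. The labels do not say whether a barcode held 1 embryo or several, so p-values measure the spread between barcode samples.

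Samples held from 134457 to 61307782 UMIs, with a median of 21739 UMIs per cell. The 2 smallest E9.5 samples were the control Bar6 with 6 cells and the mutant Bar5 with 57 cells. Of 14754 cell barcode sequences, 23 occurred in more than 1 of the 3 sequencing runs. Wls was used to check the labels. At E8.0 it stood at 58.2 ± 6.25 CPM in controls (UMIs of the gene per 1000000 UMIs of the sample, mean ± SD, n = 3) and 11.8 ± 3.93 CPM in mutants (n = 3), and at E9.5 at 42.0 ± 4.27 and 10.4 ± 1.43 CPM (n = 6 each). At E8.5 the mutant had 3.72 CPM and the controls 39.1 and 59.6 CPM. The E7.5 sample, labelled control, had 14.1 CPM of Wls. That lay within the mutant range of 3.72 to 14.2 CPM and below every other control (lowest 35.9 CPM). Wls thus did not back the control label of this sample, and the cause was not tested. Mesp1 itself, active only briefly in nascent mesoderm, was at most 2.88 CPM in any sample. The sort also held 199 cells positive for neural markers and 61 positive for endoderm or epithelium markers.

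Planar cell polarity aligns cells within the plane of a tissue. Vangl and Prickle proteins gather on the side of a cell opposite to Frizzled and Dishevelled proteins, and Celsr cadherins bridge neighbours. Noncanonical Wnt ligands such as Wnt5a and Wnt11 act through the receptor kinase family members Ror1, Ror2, Ptk7 and Ryk, and the formin Daam1 links Dishevelled to the actin cytoskeleton. In the embryo these routes are known for convergent extension and for the deployment of second heart field cells into the outflow tract.

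Promoter sequence was at hand for 8 of the 10 genes in RefSeq (GRCm38.p6). Sequences of 3 are printed because the results turn on them: Ror1 and Ror2, close relatives with different patterns across cell classes, and Daam1, the gene that moved with genotype in all cells. Each line gives bases before the outermost gene start annotated in RefSeq or GENCODE, 5′ to 3′ on the strand of the gene, for Ror1 chr4:100095541-100095790 (plus strand), for Ror2 chr13:53286125-53286374 (minus strand) and for Daam1 chr12:71830818-71830949 (plus strand). Capitals mark matches, on either strand, to 4 short motifs that were searched: the core bound by TCF/LEF factors of canonical Wnt signalling (CTTTGA), the hypoxia response core (ACGTG), the site of GATA factors (AGATAA) and the GC box (GGGCGG). The RefSeq windows are 300 bases long, and the printed stretches are shorter, 250 bases for Ror1 and Ror2 and 132 for Daam1. The searched motifs do not overlap in the printed stretches.
Ror1: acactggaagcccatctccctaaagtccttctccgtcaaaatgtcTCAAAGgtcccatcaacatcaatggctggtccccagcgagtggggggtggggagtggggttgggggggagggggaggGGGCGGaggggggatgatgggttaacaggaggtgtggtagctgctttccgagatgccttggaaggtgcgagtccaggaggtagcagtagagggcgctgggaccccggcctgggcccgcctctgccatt
Ror2: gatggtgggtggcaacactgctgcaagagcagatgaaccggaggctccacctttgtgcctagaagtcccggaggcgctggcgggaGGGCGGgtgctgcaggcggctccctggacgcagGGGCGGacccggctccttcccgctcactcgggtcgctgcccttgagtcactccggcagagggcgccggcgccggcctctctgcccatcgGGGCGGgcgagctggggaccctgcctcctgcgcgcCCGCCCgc
Daam1: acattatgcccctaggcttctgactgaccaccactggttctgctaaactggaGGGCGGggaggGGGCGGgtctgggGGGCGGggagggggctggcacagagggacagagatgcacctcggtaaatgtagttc
The Ror1 stretch held 1 TCF/LEF core and 1 GC box, the Ror2 stretch 4 GC boxes, and the Daam1 stretch 3 GC boxes. Over the full windows the counts were the same for Ror1, 5 GC boxes for Ror2, and 1 TCF/LEF core and 3 GC boxes for Daam1. None of these windows held the hypoxia or GATA motif. Among 32851 promoter windows of 300 bases, 16% held the TCF/LEF core, 19.6% the hypoxia core, 11.2% the GATA site and 35.7% the GC box. A match describes letters only.

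To place the genes in cell types, a cell was assigned to a class when it had UMIs of at least 3 of 6 markers of that class and of no other class. The 10 marker lists covered cardiomyocytes (1140 cells), anterior second heart field and pharyngeal mesoderm (1215), posterior second heart field and splanchnic mesoderm (1470), proepicardium (189), paraxial mesoderm (1486), lateral plate and allantois (292), endothelium (457), blood (2103), neural and endoderm or epithelium cells. None of the 10 genes was a marker. A further 3441 cells met no list and 2724 met several, and both were left without a class. An alternative required 4 of 6 markers, and then also let in cells with 3 markers of another class. Under it lateral plate and allantois held 333 cells, more than before, and the anterior second heart field class 721, fewer than before. Levels were computed per barcode sample with at least 20 cells of a class, and each class was compared with the other cells of the same samples by edgeR's quasi-likelihood test with Benjamini-Hochberg adjustment over all genes, called at 0.05. The other cells were all those outside the class, with the cells left without a class among them. Cells that met the list of the class and another list were thus counted with the other cells. CPM comes from 3′ tags and is compared here only within a gene, never between genes.

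**Figure D1:**
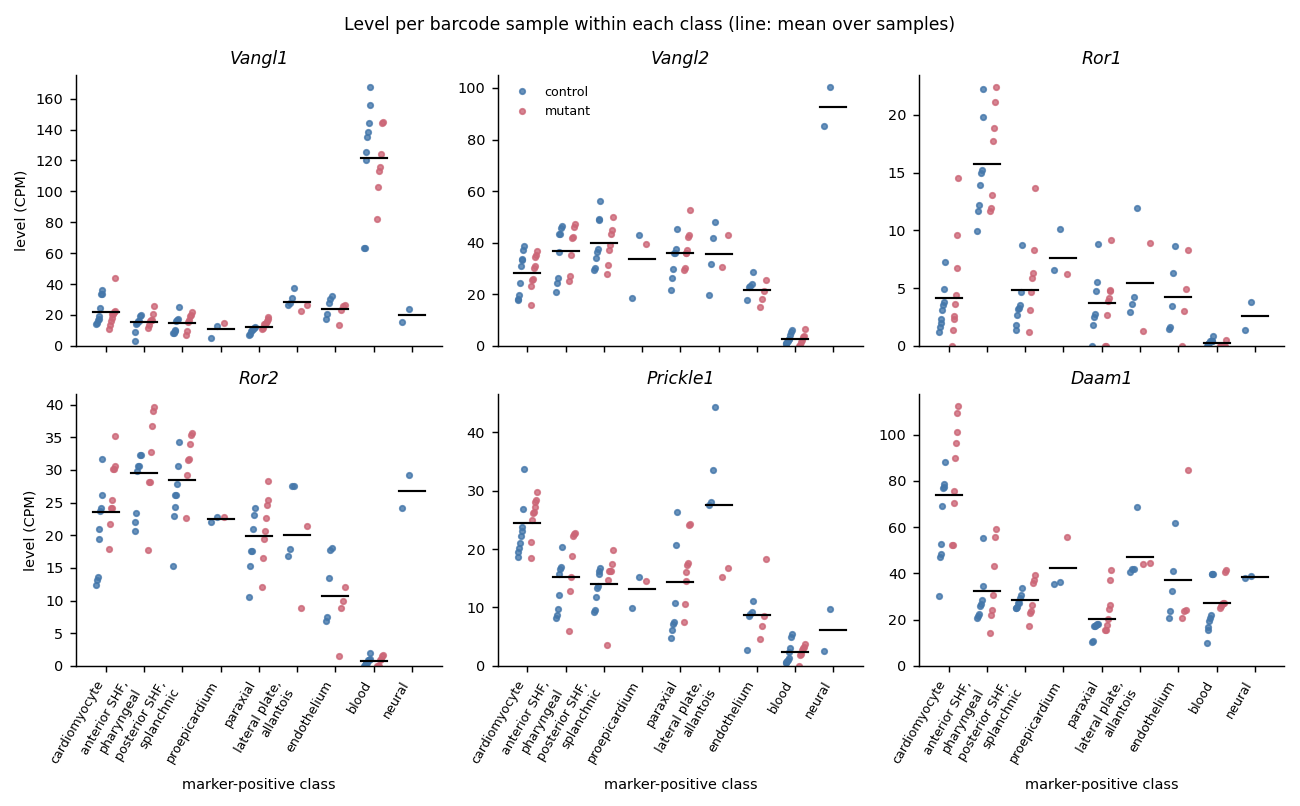
Level in CPM (vertical axis, linear, from 0) of 6 of the genes in each marker-positive class (horizontal axis); each point is 1 barcode sample with at least 20 cells of the class, control in blue and mutant in red, and the line is the mean over samples. Vangl1 in blood averaged 121 CPM and stood apart from every other class, Ror1 was highest in the anterior second heart field class (15.8 CPM) and Daam1 in cardiomyocytes (73.8 CPM).

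Vangl1 and Vangl2, the multi-pass membrane proteins at the core of the polarity complex, differed most in blood. Vangl1 in blood-positive cells ranged from 63.1 to 167 CPM with a median of 125 CPM over 16 samples, and in the other cells of these samples it averaged 20.2 CPM. Blood was higher in 16 of 16 samples and did not overlap any other class, where the highest value in a sample was 44.2 CPM (cardiomyocytes). After blood came lateral plate and allantois (28.7 ± 5.11 CPM, SD, n = 6), endothelium (24.2 ± 6.14, n = 9) and cardiomyocytes (22.2 ± 9.07, n = 18), then the anterior second heart field class (15.6 ± 5.16, n = 15), the posterior one (14.8 ± 5.50, n = 15), paraxial mesoderm (12.5 ± 3.39, n = 15) and proepicardium (10.9 ± 5.12, n = 3). Only the step below blood exceeded the SD of its neighbours. Vangl1 was lower than in the other cells in all 15 samples of paraxial mesoderm (log2 −1.93, SE 0.14, edgeR adjusted p = 3.74e-12) and in all 15 of each second heart field class (−1.51 and −1.65). These other cells include blood, and for paraxial mesoderm they averaged 40.6 CPM, above the 20.2 CPM of cells outside blood. The size of these changes against cells without blood was not tested.

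Vangl2 ran the other way in blood. It ranged from 0 to 6.63 CPM there (median 2.57, n = 16), against a mean of 34.5 CPM in the other cells, and was lower in 16 of 16 samples. In mesoderm classes it lay between 28.4 ± 7.39 CPM (cardiomyocytes) and 39.8 ± 8.65 CPM (posterior second heart field), and in endothelium at 21.9 ± 4.30 CPM. The posterior second heart field class stood above its other cells in 15 of 15 samples (log2 0.39, SE 0.06, edgeR adjusted p = 1.36e-05), the anterior class in 14 of 15 (0.21) and paraxial mesoderm in 12 of 15 (0.18). These other cells include blood and averaged 28, 28.6 and 29 CPM, below the 34.5 CPM of cells outside blood. The anterior class averaged 36.8 CPM and paraxial mesoderm 36.0 CPM, and changes of Vangl2 against cells without blood were not tested. The anterior and paraxial calls were lost when 4 of 6 markers were required (adjusted p = 0.249 and 0.152) and with at least 50 cells a sample (0.15 and 0.05). The 2 samples with enough neural cells had 85.2 and 100.2 CPM of Vangl2, above the sample values of every other class, and 42.0 and 45.9 CPM of Celsr1. Neural cells were not tested.

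The share of cells with a UMI of each gene differed between blood and other classes too. Each cell was thinned to 5000 UMIs, and shallower cells (365 control, 82 mutant) were dropped. In blood 42.6 ± 10.6% of cells had a Vangl1 UMI and none of Vangl2, 0.96 ± 0.96% had only Vangl2, and 0.55 ± 0.74% had both (n = 16 samples). At this depth a cell with 1 of the genes alone may also hold RNA of the other. The share with both that unlinked detection would give was not computed, so these shares do not show that cells use 1 gene or the other. In paraxial mesoderm 3.67 ± 2.46% had only Vangl1 and 17.8 ± 6.88% only Vangl2 (n = 15). In endothelium 7.86 ± 2.98% had only Vangl1 and 8.61 ± 4.67% only Vangl2 (n = 9). Without thinning, 87.2% of blood cells and 19.8% of paraxial cells had a Vangl1 UMI, at median depths of 27843 and 20174 UMIs. After thinning 1.51 ± 1.46% of blood cells had a Vangl2 UMI. Free RNA was not estimated, so low shares are given as measured.

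**Figure D2:**
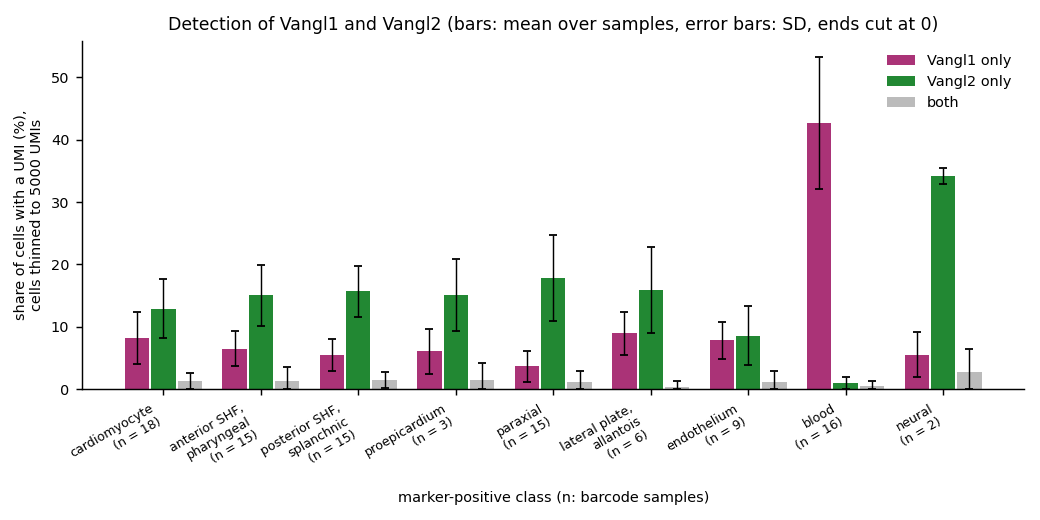
Mean share of cells (%, vertical axis) with a UMI of Vangl1 only, Vangl2 only or both, per marker-positive class, in cells thinned to 5000 UMIs; error bars are the SD over barcode samples, cut at 0. In blood 42.6% of cells had only Vangl1 and 0.96% only Vangl2, and in paraxial mesoderm 3.67% had only Vangl1 and 17.8% only Vangl2.

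Blood-positive cells had little of most other members. Ror2 averaged 0.70 ± 0.62 CPM against 23.2 CPM in the other cells of the samples, Ror1 0.23 ± 0.26 against 7.45, Ptk7 2.65 ± 2.04 against 46.9 and Celsr1 0.33 ± 0.56 against 6.28. Prickle1 averaged 2.30 ± 1.59 CPM against 15.4, Prickle2 2.85 ± 1.13 against 6.61 and Ryk 45.5 ± 13.9 against 116. These 7 genes and Vangl2 were lower in blood in 16 of 16 samples. Fold changes in blood depended on scaling: the median over all genes was −0.20 on the log2 scale with TMM factors, which equalise the bulk of genes, and −1.02 with library totals alone. Vangl1 was higher under both (3.42 and 2.60), and the 8 genes were lower under both. Daam1 flipped: 0.23 (adjusted p = 0.0105; 0.0893 with DESeq2) with TMM factors and −0.59 (adjusted p = 0.000422) with library totals, with CPM lower in 14 of 16 samples. Blood is also the class with the most changed genes, 77.4% of those tested.

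**Figure D3:**
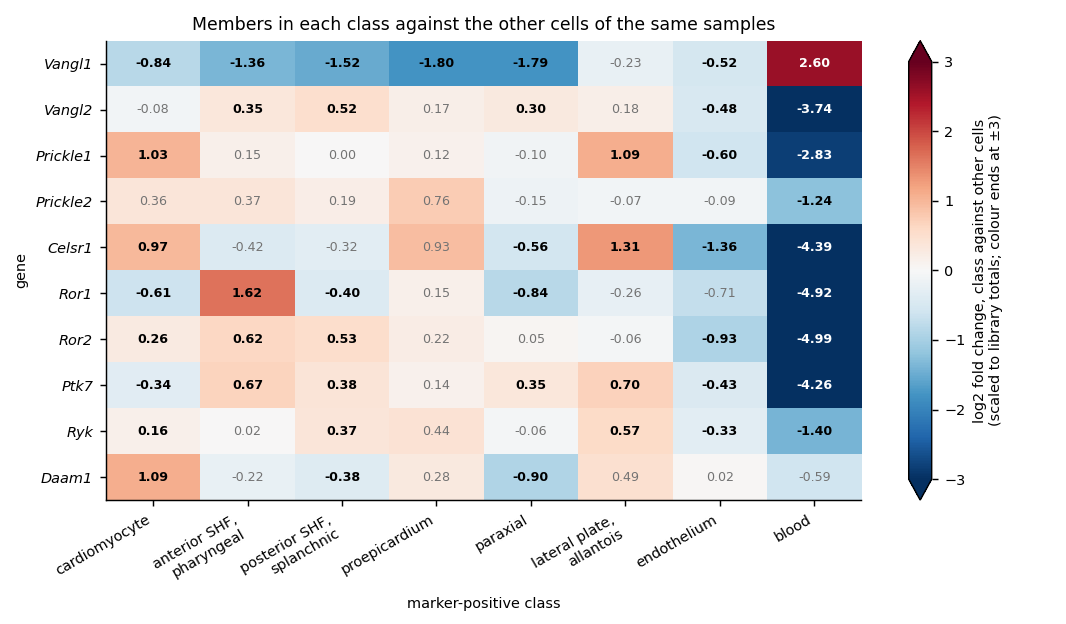
Log2 fold change of each gene (rows) in each marker-positive class (columns) against the other cells of the same barcode samples, scaled to library totals, from blue (lower) to red (higher) with the colour ending at ±3; bold numbers had an adjusted p under 0.05 in the same direction with library totals and with TMM factors. The blood column holds the largest values, with Vangl1 at 2.60 and Ror2 at −4.99.

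Over the 8 classes with enough cells, 53 of 80 gene-by-class tests were called, 21 higher and 32 lower. The share of all genes called was 59.7% in cardiomyocytes, 32.1% in the anterior and 30.3% in the posterior second heart field class, 8.98% in proepicardium, 31.7% in paraxial mesoderm, 14.5% in lateral plate and allantois, 35.3% in endothelium and 77.4% in blood. In proepicardium, with 3 samples, 1 of 10 was called, Vangl1 (log2 −2.06). In endothelium 8 of 10 were called, all lower, from −0.39 (Ryk) to −1.39 (Celsr1), and Ror1 lost its call there with library totals (adjusted p = 0.059). For every class but blood the other cells include blood. Vangl1 in endothelium averaged 24.2 CPM against 35.1 CPM in such other cells, while cells outside blood averaged 20.2 CPM in the 16 samples with enough blood. In cardiomyocytes 8 of 10 members were called, a count to be read against that 59.7%.

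Among the tyrosine kinase-like receptors, Ror1 and Ror2, which bind Wnt5a, parted company. Ror1 in the anterior second heart field and pharyngeal class ranged from 9.92 to 22.4 CPM (median 15.0, n = 15), against a mean of 5.22 CPM in the other cells. It was higher there in 15 of 15 samples (log2 1.48, SE 0.14, edgeR adjusted p = 3.25e-09), and the step to the next class, proepicardium at 7.64 ± 2.15 CPM, exceeded the SDs. In the posterior second heart field class Ror1 averaged 4.83 ± 3.36 CPM and was lower than in the other cells in 12 of 15 samples (−0.52), and it was lower in cardiomyocytes (−0.63) and paraxial mesoderm (−0.96). Ror2 was higher in both second heart field classes, at 29.6 ± 6.48 CPM in the anterior and 28.5 ± 5.68 CPM in the posterior one, in 15 of 15 samples each (0.48 and 0.40). Their other cells, blood among them, averaged 19.5 and 19.2 CPM, while cells outside blood averaged 23.2 CPM in the 16 samples with enough blood. Changes of Ror2 against cells without blood were not tested. In cardiomyocytes Ror2 averaged 23.6 ± 6.60 CPM (0.24), and the call was lost with at least 50 cells a sample (0.09, adjusted p = 0.47). Endothelium had 10.7 ± 5.34 CPM of Ror2, lower in 9 of 9 samples (−0.98).

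Ptk7, a pseudokinase receptor required for neural tube closure, and Ryk, a Wnt receptor that also lacks kinase activity, were the most widely detected members, with UMIs in 51.1% and 79.9% of all cells. Ptk7 averaged 62.5 ± 10.9 CPM in the anterior second heart field class and 52.0 ± 6.93 CPM in the posterior one, above the other cells in 15 of 15 samples each (log2 0.52 and 0.25), though the posterior call was lost when 4 of 6 markers were required (0.18, adjusted p = 0.0848). It was also higher in lateral plate and allantois (69.2 ± 16.6 CPM, 6 of 6 samples, 0.61) and lower in cardiomyocytes (31.3 ± 7.69 CPM, −0.36). Ryk was highest in lateral plate and allantois (160 ± 24.7 CPM, 6 of 6 samples, 0.48) and in the posterior second heart field class (132 ± 22.6 CPM, 15 of 15 samples, 0.24). For Ptk7 and Ryk too the other cells include blood. Cells outside blood averaged 46.9 CPM of Ptk7 and 116 CPM of Ryk in the 16 samples with enough blood, and changes against them were not tested. In the anterior class Ryk was called lower in the main test with TMM factors (−0.13, edgeR adjusted p = 0.0161). With library totals it gave 0.02 (adjusted p = 0.842), and it was called under none of the 4 alternatives.

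Prickle1, the cytoplasmic partner of Vangl, and Celsr1, the atypical cadherin, shared their 2 highest mesodermal classes. Prickle1 in cardiomyocytes ranged from 18.4 to 33.8 CPM (median 24.4), above the other cells in 18 of 18 samples (log2 1.00, SE 0.09, edgeR adjusted p = 2.02e-10). In lateral plate and allantois it ranged from 15.2 to 44.3 CPM (median 27.7, 5 of 6 samples, 1.00), which fell to 0.545 and was not called when 4 of 6 markers were required (adjusted p = 0.128). Celsr1 was higher in lateral plate and allantois (13.1 ± 7.59 CPM, 6 of 6 samples, 1.23) and in cardiomyocytes (9.56 ± 5.85 CPM, 15 of 18 samples, 0.96). Its class means overlapped within their SDs down to endothelium (2.11 ± 1.28 CPM). Prickle2, the second Prickle, averaged between 5.30 and 10.3 CPM in the 7 other tested classes and was called in blood alone (−0.40), where the call was lost with at least 50 cells a sample (−0.30, adjusted p = 0.107). With library totals it was called there (−1.24), in cardiomyocytes (0.36) and in the anterior second heart field class (0.37).

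Daam1, the formin, was a cardiomyocyte-high gene. It ranged from 30.2 to 112 CPM in that class (median 76.5) and was above the other cells in 17 of 18 samples (log2 1.06, SE 0.09, edgeR adjusted p = 8.73e-11). Among the tested classes lateral plate and allantois followed at 46.9 ± 10.7 CPM, then proepicardium at 42.5 ± 11.6 and endothelium at 37.0 ± 22.3 CPM, and paraxial mesoderm was lowest at 20.5 ± 8.70 CPM, below the other cells in 15 of 15 samples (−1.02). Over all stages only the step below cardiomyocytes exceeded the SDs, and at E8.0 it did not: cardiomyocytes averaged 53.8 ± 14.8 CPM (n = 6) and lateral plate and allantois 43.1 ± 2.24 CPM (n = 3). At E9.5 cardiomyocytes averaged 83.2 ± 21.8 CPM (n = 10). Daam1 was lower in the posterior second heart field class (28.4 ± 5.99 CPM, 14 of 15 samples, −0.50). In the anterior class it gave −0.37 (adjusted p = 0.00922) with TMM factors and −0.22 (adjusted p = 0.137) with library totals, and the call was also lost with 4 of 6 markers (0.326) and with at least 50 cells a sample (0.159).

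The genes whose levels across 99 class-by-sample sums (18 samples) ran most like each member were taken from 6206 genes with a mean of at least 20 CPM. For Vangl1 they were Fech, the last enzyme of heme synthesis (Pearson r = 0.89), and Fam210b (0.89). For Vangl2 they were Fzd3 (0.95) and Ptprf (0.95), for Ror2 Fat1 (0.95) and Bmpr1a (0.94), and for Ptk7 Basp1 (0.96) and Rcn2 (0.96). For Daam1 they were Crip1 (0.76) and Tnni1 (0.75), the latter being a marker used to choose cardiomyocytes. Ror1 ran most like Tgfbi (0.77) and Maml3 (0.75), Prickle1 like Gpx3 (0.87) and Actn1 (0.87), Celsr1 like Map1b (0.74) and Arid3b (0.73), Ryk like Tln2 (0.91) and Sec11a (0.91), and Prickle2 like Tgfb2 (0.62) and Speg (0.59). Sums of 1 sample share a library and its depth, and blood sums stand apart from the rest. Between members, Ror2 and Vangl2 had r = 0.90 over all sums and 0.46 over the 83 sums without blood, and Vangl1 and Vangl2 had −0.81 over all sums and −0.06 without blood.

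The genotype comparison asks how Mesp1-lineage cells with both Wls alleles floxed differ from those with 1. In all cells and stages, with stage and run in the model, 1 of 10 members was called: Daam1 was higher in mutants (log2 0.37, SE 0.09, edgeR adjusted p = 0.00963). Over all genes tested 10.2% were called. Of the 10 members 6 had a positive value, and their median was 0.13 beside 0.02 for all genes. Unadjusted p fell under 0.05 for 4 members, beside 4864 of all 20831 genes tested. The values of those not called were Vangl1 −0.37 (adjusted p = 0.195), Celsr1 0.35 (0.196), Prickle1 0.26 (0.0979), Prickle2 0.19, Ror2 0.16, Ror1 0.10, Ptk7 −0.06, Ryk −0.04 and Vangl2 −0.01. Daam1 kept its call without each sample in turn (0.32 to 0.42). Without the E9.5 samples it was 0.16 (adjusted p = 0.608), and within runs 1, 2 and 3 it was 0.30, 0.47 and 0.63, each positive and none called.

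**Figure D4:**
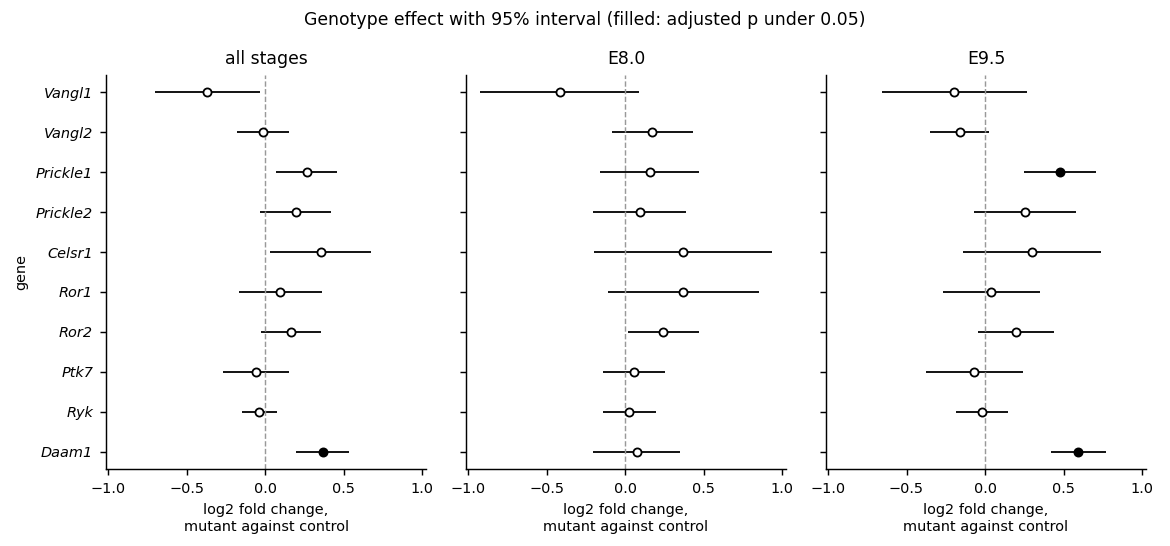
Log2 fold change, mutant against control (horizontal axis, 95% interval as the bar), of each gene (rows) over all stages, at E8.0 and at E9.5; filled points had an adjusted p under 0.05. Daam1 was called over all stages (0.37) and at E9.5 (0.59), Prickle1 at E9.5 (0.48), and no gene at E8.0.

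At E9.5 Daam1 in the 6 controls was lowest at 22.3, with a median of 28.5 and a highest of 33.2 CPM, and in the 6 mutants lowest at 37.7, with a median of 45.0 and a highest of 52.8 CPM. Every mutant lay above every control, and the share of all genes that separate in this way at E9.5 is not given. The fitted change was 0.59 (log2, SE 0.09, edgeR adjusted p = 0.00107), and 10.3% of all genes were called at this stage (1766 genes, which fell to 603 without Bar23 and 704 without Bar22, both controls). Within runs the mutants had 41.9, 44.6 and 45.4 CPM against 27.7 and 33.2 CPM (run 1), 37.7 against 22.3 and 28.5 (run 2), and 49.96 and 52.8 against 28.6 and 29.7 (run 3). In every run the lowest mutant was above the highest control, but in run 2 this rests on few counts: the 22.3 CPM are 3 UMIs in the 6 cells of Bar6 (95% Poisson interval, counting error only, 4.60 to 65.2 CPM), and the mutant Bar5 had 35 UMIs (26.3 to 52.5 CPM). Without blood-positive and endothelium-positive cells the change was 0.50 (adjusted p = 0.00517), and with limma on the mean over cells, where each cell counts alike, it was 0.44 and not called (adjusted p = 0.139). Cardiomyocytes, the class with most Daam1, made up 10.8 ± 7.35% of mutant cells (n = 6) and 8.63 ± 4.46% of control cells (n = 5 samples of at least 50 cells), and paraxial cells, the class with least, 6.49 ± 3.18% and 10.0 ± 4.51%. The part of these shares in the change was not tested.

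Prickle1 was the other member called at E9.5 (log2 0.48, SE 0.12, edgeR adjusted p = 0.0194). Controls had a lowest level of 5.44, a median of 8.05 and a highest of 12.6 CPM, and mutants a lowest of 7.54, a median of 14.2 and a highest of 16.6 CPM. Of the 6 mutants 5 lay above every control, and Bar5, the mutant of 57 cells, lay among the controls. Within run 1 the mutants had 14.7, 16.0 and 16.6 CPM and the controls 11.8 and 12.6, and within run 3 13.3 and 13.8 against 5.44 and 8.22. In run 2 the 1 mutant, Bar5, had 7.54 CPM and the controls 7.44 and 7.89, and Prickle1 did not pass the filter on low counts in that run. The call was lost without Bar9 (adjusted p = 0.0543), Bar22 (0.0992) or Bar23 (0.0711), all controls, with no filter on low counts (0.0771) and with limma (0.57). In run 1 alone Daam1 (0.57, adjusted p = 0.0292) and Prickle1 (0.42, adjusted p = 0.0497) were called, and so was Vangl2, lower in mutants (−0.36, adjusted p = 0.037), while runs 2 and 3 gave 0.39 and 0.11.

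**Figure D5:**
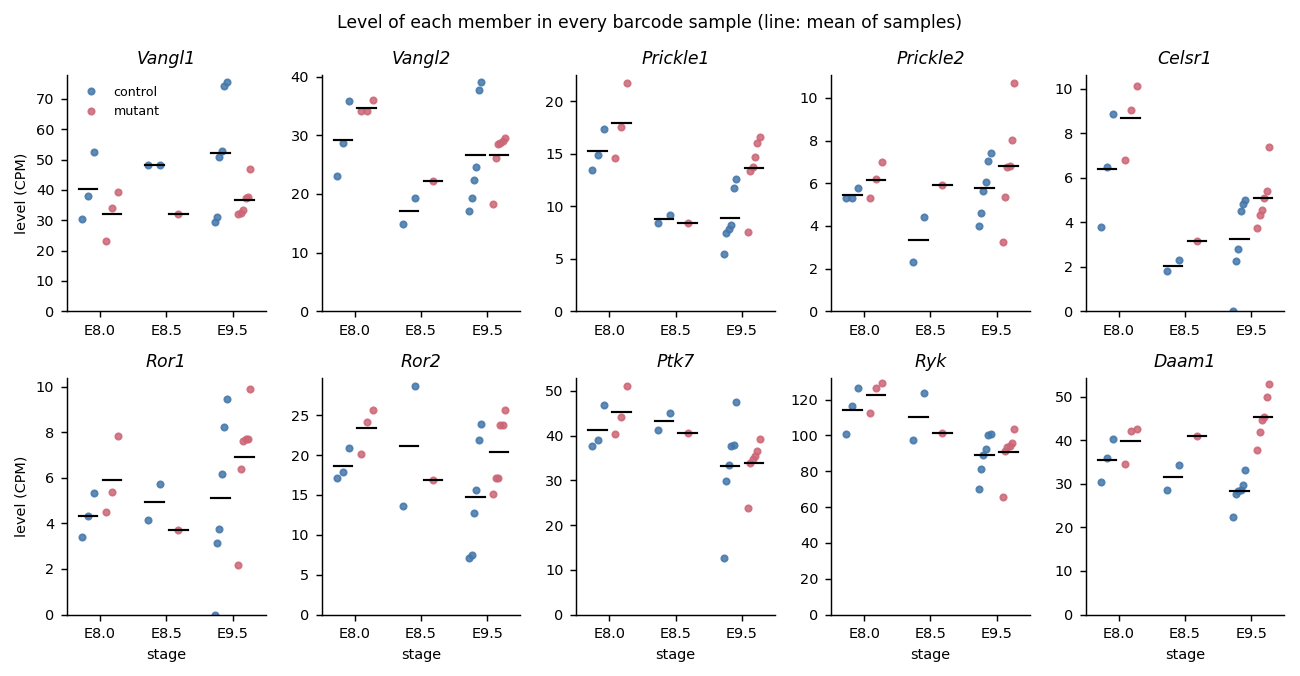
Level in CPM (vertical axes, linear, from 0) of each of the 10 genes in every barcode sample at E8.0, E8.5 and E9.5, control in blue and mutant in red, with the mean as a line; the E7.5 sample is not drawn. For Daam1 at E9.5 the mutants (37.7 to 52.8 CPM) lie above all controls (22.3 to 33.2 CPM), while most other genes overlap.

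At E8.0, with 3 samples a group, 0 of 10 members were called, and 0.0244% of all genes were. By unadjusted p under 0.05 the count of members was also 0, beside 1615 of all 16416 genes tested, and DESeq2 called 0 members. Daam1 had 30.3, 36.0 and 40.4 CPM in controls and 34.5, 42.2 and 42.5 CPM in mutants, which overlap (log2 0.07, SE 0.14). Ror2 had 17.2, 17.9 and 21.0 CPM in controls and 20.2, 24.2 and 25.7 CPM in mutants, with the lowest mutant under the highest control (0.24, SE 0.12). Vangl1 had 30.3, 38.0 and 52.6 CPM in controls and 23.1, 34.1 and 39.3 CPM in mutants (−0.42, SE 0.26). The difference of the genotype effect between the stages was called for 0 of 10 members (0.464% of all genes): for Daam1 it was 0.52 (SE 0.16, edgeR interaction term, unadjusted p = 0.00411, adjusted p = 0.181) and for Prickle1 0.33 (adjusted p = 0.529). DESeq2 called 0 members there, and 1 member had an unadjusted p under 0.05 in edgeR, beside 2060 of all 17872 genes tested. At E8.5, with 1 mutant and no test, Daam1 was 41.0 CPM in the mutant and 28.6 and 34.4 CPM in controls, and Vangl1 32.0 against 48.1 and 48.4 CPM.

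For Vangl1, which was not called for genotype, the share of blood cells is given beside the level. In a sum over cells, fewer cells of a type and less RNA per cell cannot be told apart. Blood-positive cells were 17.9 ± 9.23% of control and 7.79 ± 4.12% of mutant cells at E8.0 (n = 3 each), and 20.3 ± 13.4% (n = 5) and 16.7 ± 8.37% (n = 6) at E9.5. Without blood-positive and endothelium-positive cells the genotype value of Vangl1 over all stages was 0.06 (adjusted p = 0.83). Within blood-positive cells it was −0.07 (SE 0.18, n = 7 mutant and 9 control samples). In the other tested classes Vangl1 lay between −0.10 (endothelium) and 0.55 (paraxial mesoderm, SE 0.19, unadjusted p = 0.0082, edgeR adjusted p = 0.0857), none called. The value in all cells differed by run: over all stages runs 1, 2 and 3 gave −0.04, −0.56 and −1.16, and at E9.5 0.42, −0.26 and −1.15, none called. The part of blood cell shares in these values was not tested.

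Within classes, the genotype was tested in the 6 classes with at least 3 samples of each genotype, and 1 of 52 tests of members was called. Daam1 in paraxial mesoderm had 10.2, 17.1, 17.6 and 18.1 CPM in the E9.5 controls and 24.4, 26.4, 37.0 and 41.3 CPM in the E9.5 mutants, with no overlap. How many of all genes show no overlap in these samples of the class is not given. At E8.0 the values were 10.6 and 17.1 CPM in controls and 15.6, 15.7 and 20.1 CPM in mutants, and at E8.5 18.3 CPM in the control and 17.7 CPM in the mutant. Over all stages the change was 0.66 (log2, SE 0.18, edgeR adjusted p = 0.0369), where 6.32% of all genes were called. The share was 1.79% in cardiomyocytes, 1.27% in the anterior and 0.128% in the posterior second heart field class, 0.0205% in endothelium and 0.018% in blood. The sums behind it were small, from 6 to 133 UMIs of Daam1 a sample, and the call was lost without any of Bar9, Bar10, Bar20, Bar21, Bar22 or Bar23 (adjusted p up to 0.202), and with DESeq2 (0.0558). It was also lost when 4 of 6 markers were required (0.0993).

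In cardiomyocytes Daam1 at E9.5 had 47.0, 52.7, 77.1, 78.6 and 88.0 CPM in controls and 75.8, 89.8, 101, 109 and 112 CPM in mutants. Of the 5 mutants 4 lay above every control. Over all stages the change was 0.46 (SE 0.15, edgeR unadjusted p = 0.00455) and was not called (adjusted p = 0.108), though it was without Bar26 (0.56, adjusted p = 0.0297). The other classes gave 0.42 (anterior second heart field), 0.07 (posterior second heart field), 0.60 (endothelium) and 0.33 (blood), none called. The endothelium value rested on Bar19, the only E9.5 mutant in that class (84.8 CPM, the next mutant 24.3 CPM), and was −0.33 without it. The posterior value turned to −0.04 without Bar1 or Bar3. Prickle1 in paraxial mesoderm gave 0.64 (SE 0.21, unadjusted p = 0.00694), not called, and was called with at least 50 cells a sample (1.03, adjusted p = 0.00982) and with 4 of 6 markers (1.14, adjusted p = 0.0162). Differences between classes in the genotype effect were not tested.

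From E8.0 to E9.5, with genotype in the model, 4 of 10 members were called, where 22.5% of all genes were. Celsr1 was at 3.78, 6.48 and 8.88 CPM in E8.0 controls and 6.82, 9.06 and 10.1 CPM in E8.0 mutants, and at E9.5 ranged from 0 to 7.38 CPM with a median of 4.54 (n = 12). It fell by 0.66 on the log2 scale (SE 0.18, edgeR adjusted p = 0.0101). Ryk was between 101 and 129 CPM at E8.0 (median 121, n = 6) and between 65.7 and 104 CPM at E9.5 (median 93.0, n = 12), and fell by 0.25 (SE 0.07, adjusted p = 0.00904). The ranges of both genes overlapped between stages. Run 1 held every E8.0 sample, and within it Celsr1 gave −0.66 and Ryk −0.25, both called. With limma Celsr1 was not called (−0.62, adjusted p = 0.251).

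Ror1 was higher at E9.5 (log2 0.55, SE 0.19, edgeR adjusted p = 0.0389), with 3.42 to 7.82 CPM at E8.0 (median 4.92) and 0 to 9.89 CPM at E9.5 (median 7.01). Within run 1 the change was 0.75 (adjusted p = 0.00518), while limma gave −0.01 (adjusted p = 0.99). It was not called with no filter on low counts (0.54, adjusted p = 0.0669) nor without blood-positive and endothelium-positive cells (0.44, adjusted p = 0.0569). Leaving out 1 sample lost the call in 12 of 21 cases, at changes of 0.48 to 0.58 (adjusted p up to 0.0994). Prickle1 fell by 0.38 (SE 0.12, adjusted p = 0.028), with 13.4 to 21.8 CPM at E8.0 (median 16.2) and 5.44 to 16.6 CPM at E9.5 (median 12.2). It was not called within run 1 (−0.22, adjusted p = 0.138), with limma (adjusted p = 0.0766), without cells positive for several classes (0.0536), nor without Bar24, Bar25 or Bar29. Vangl1 was at 0.38 (adjusted p = 0.195) and turned to −0.65 (SE 0.13, adjusted p = 0.000808) without blood-positive and endothelium-positive cells. Within cardiomyocytes Vangl1 averaged 31.8 ± 9.02 CPM at E8.0 (n = 6) and 17.5 ± 4.39 CPM at E9.5 (n = 10), and within blood 95.2 ± 29.3 (n = 5) and 130 ± 23.6 CPM (n = 9). These stage levels within classes were not tested.

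The rest of the pathway was read from a list of 39 further genes, with ligands, Frizzleds, Dishevelleds, Fat cadherins and syndecans among them, of which 38 were tested over all stages. Of these 2 were higher in mutants and 0 lower, beside 10.2% called among all genes. Sdc4, a syndecan that acts as a co-receptor in noncanonical Wnt signalling, gave 0.96 (log2, SE 0.18, edgeR adjusted p = 0.00238). At E9.5 it had 14.2 to 17.2 CPM in controls (median 15.6) and 36.9 to 64.1 CPM in mutants (median 45.4), with no overlap (1.54, adjusted p = 2.1e-06). At E8.0 the groups overlapped, with 14.5, 15.3 and 26.6 CPM in controls and 18.7, 20.6 and 26.4 CPM in mutants (0.14). The difference of this genotype effect between stages was called (1.41, edgeR adjusted p = 0.0111), though with limma 0 of 17872 genes were called for it. Wnt11, a noncanonical ligand of the outflow tract, gave 0.66 (SE 0.14, adjusted p = 0.00461), not called with limma (0.82, adjusted p = 0.152). It had 3.06, 3.84 and 4.19 CPM in E8.0 controls and 5.37, 5.49 and 5.62 CPM in E8.0 mutants, with no overlap, though not called at that stage (adjusted p = 0.496). Among the genes named here Daam2 did not overlap at E8.0 either, with 4.32 to 4.71 CPM in controls and 5.07 to 9.48 CPM in mutants. The share of all genes without overlap is not given for E8.0 or for E9.5. At E9.5 alone 36 were tested (10.3% of all genes were called), with Sdc4 and Wnt11 higher and Scrib (−0.54, adjusted p = 0.0345) and Fat4 (−0.66, adjusted p = 0.0338) lower, the latter pair named after their values were seen. Between stages, where 22.5% of all genes were called, 10 of 36 were higher at E9.5 and 1, Wnt5a, was lower (−0.35, named after its value was seen). The higher ones were led by Wnt4 (1.59), Gpc4 (1.05), Jun (0.96), Fat4 (0.89), Daam2 (0.64) and Wnt11 (0.61). Within run 1, which held every E8.0 sample, these 6 were called too, with Wnt4 at 1.55, Gpc4 at 0.90, Jun at 0.48, Fat4 at 1.06, Daam2 at 0.77 and Wnt11 at 0.60. Jun reached 316 CPM in Bar9, a control of run 3. Wnt5a was not called in run 1 (−0.27, adjusted p = 0.136), and with limma none of these 7 genes was called (adjusted p from 0.0682 to 0.833).

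By position in GENCODE M21 (GRCm38), Vangl1 lies at chr3:102153583-102204693 (minus strand), Vangl2 at chr1:172000960-172028444 (minus), Prickle1 at chr15:93499114-93595891 (minus), Prickle2 at chr6:92370908-92706155 (minus) and Celsr1 at chr15:85898929-86033777 (minus). Ror1 lies at chr4:100095791-100444765 (plus), Ror2 at chr13:53109312-53286124 (minus), Ptk7 at chr17:46564471-46629504 (minus), Ryk at chr9:102834917-102908305 (plus) and Daam1 at chr12:71831078-71992333 (plus). All are protein-coding. Vangl1 shares exon bases with the antisense gene Gm16160, which had 27 UMIs in all cells beside 12941 for Vangl1, and no other member shares exon bases with another gene.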

How the data were processed

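Mesp1-lineage cells, sorted by tdTomato from MULTI-seq-labelled embryos, were counted on the 10x Chromium v3 platform. Mapping used kallisto|bustools, per the labels, and bustools 0.46.1, Cell Ranger and GRCm38 are named in the submitters' processing notes. The authors' deposited file gives UMI counts as whole numbers for 51923 genes in 14777 cells. Stage, genotype, run and barcode came from the authors' per-cell table. Counts were summed here per barcode sample (22, from 134457 to 61307782 UMIs) and tested with edgeR 4.0.16 under R 4.3.3 (filterByExpr, TMM, two-sided quasi-likelihood F test, Benjamini-Hochberg over all genes tested). Covariates were stage and run for genotype over all stages, none at E8.0, run at E9.5 and for the interaction, genotype between stages, and the sample for classes. The E7.5 sample was used only for genotype over all stages, as its own stage. SE is the absolute log2 change over the square root of F, and plotted 95% intervals are 1.96 SE. CPM was computed here. Alternatives were DESeq2 1.42.0, limma 3.58.1 on log2 of the mean CPM per cell plus 1, other filters, and leaving out runs, cells or samples. The members and lists were chosen with earlier results of these data known. All members are named. Of the 39 list genes those called for genotype over all stages, and the 6 largest called changes between stages, are named. Likeness is Pearson correlation of log2(CPM + 1), with the 2 highest genes named. No doublet caller was run.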

Additional observations from a re-analysis of the deposited data

Results flagged for a closer look

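In 77 groups of 4 to 10 samples, 12 had a sample far from the others by Dixon's criterion, which chance alone gives in about 1 group in 20. Of these, 5 rest on the E9.5 mutant Bar5 (57 cells), which was the lowest of its group for Vangl2 (18.3 CPM), Prickle1 (7.54 CPM), Ptk7 (23.7 CPM), Ryk (65.7 CPM) and Fat4 (0 CPM, where 3 UMIs would give 3.23 CPM). The E9.5 control Bar6 (6 cells) had the highest Prickle3 of its group (14.9 CPM) and the lowest Gpc4 (0 CPM, where 3 UMIs would give 22.3 CPM). The E9.5 control Bar9 had 316 CPM of Jun, with the next control at 109.6 CPM.

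Within marker-positive classes the flagged samples were all of Daam1, but the other members were not all screened by genotype within classes. The list therefore does not set Daam1 apart from them. Bar9 had 55.3 CPM in the anterior second heart field class, above the next control at 34.7 CPM. Bar3, an E8.5 control, had 68.6 CPM in lateral plate and allantois, above all other samples (next value 44.6 CPM) and above the other controls (next value 41.9 CPM). Bar19, an E9.5 mutant, had 84.8 CPM in endothelium, where the next mutant had 24.3 CPM.

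Sdc4 was the 1 gene among the members and the further list with a called interaction of genotype and stage (1.41 on the log2 scale, E9.5 minus E8.0). With limma on mean CPM per cell 0 of 17872 genes were called for the interaction.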

How the results depend on the processing

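The count of members called for genotype over all stages (1) was 2 with DESeq2 (Prickle1 added, adjusted p = 0.0181), 0 in runs 1, 2 and 3 alone, 0 without the E9.5 samples, and 1 to 2 without each sample in turn (2 without Bar3 or Bar27). At E9.5 (2) it was 1 with no filter on low counts, 0 with limma on mean CPM per cell, 3 in run 1 alone, 0 in run 2 and in run 3 alone, and 1 to 2 without each sample in turn. Between stages (4) it was 1 with limma and 2 to 4 without each sample in turn. Within classes (1 of 52 tests) it was 2 of 35 tests with at least 50 cells per sample, 1 of 49 with 4 of 6 markers and 0 with DESeq2. For classes against other cells (53 of 80 tests) it was 47 with 4 of 6 markers, 50 with DESeq2 and 51 with library totals. In the 5 classes left with at least 50 cells it was 34 of 50 tests, where 40 had been called. With library totals the share of all genes called ran from 9.96% (proepicardium) to 85.5% (blood). The other class counts under alternatives are given without that share. At E8.0 and for the interaction it stayed 0 under the alternatives run. Values that changed sign and were called before or after the change were Vangl1 between stages without blood-positive and endothelium-positive cells (−0.65), Ror1 between stages with limma (−0.011), and, with library totals in place of TMM factors, Ryk in the anterior second heart field class (0.0163) and Daam1 in blood (−0.59). The cause was not tested. Of 121 values of members not called in the main test, 61 changed sign under at least 1 alternative. Library totals, cells positive for several classes, samples under 50 cells and leaving out samples within classes were alternatives chosen after seeing the data. With the share of Y-linked UMIs as covariate Daam1 gave 0.42 over all stages (adjusted p = 0.0416) and 0.55 at E9.5 (adjusted p = 0.00342). Over all genes, 2132 were called for genotype over all stages, 3274 with DESeq2, 506 with limma and 471 with the Y-linked share, and at E9.5 1766, 2701, 132 and 1180. At E8.0 the 4 genes called were 45 with DESeq2, 35 with no filter on low counts and 0 with the Y-linked share as covariate in edgeR (454 at an unadjusted p under 0.05). For the interaction 83 were 395 with DESeq2, 669 with no filter, 176 without blood-positive and endothelium-positive cells, 32 in run 1 and 0 with limma (807 at an unadjusted p under 0.05), and between stages 4070 were 1853 with limma. Single runs called 2, 27 and 57 genes for genotype over all stages, and 1 gene was called without the E9.5 samples. At E9.5 run 1 called 1283, run 2 176 and run 3 58. Run 2 then held 1 mutant, assumed to vary like the other samples, and Prickle1, Prickle2, Celsr1 and Ror1 were not tested there. Leaving out 1 sample moved the count of all genes called by over 1.5 times over all stages (1421 without Bar1, 1259 without Bar23), at E9.5 (1110 without Bar9, 1103 without Bar19, 704 without Bar22, 603 without Bar23), at E8.0 (1 without Bar24 or Bar27, 2 without Bar25, 10 without Bar29) and for the interaction (29 without Bar25, 39 without Bar27, 42 without Bar28, 47 without Bar23, 48 without Bar22, 54 without Bar10 or Bar26, 137 without Bar20), and not between stages. The interaction could not be fitted in runs 2 and 3 alone. No paired analysis was possible because the labels give the barcode samples no replicate numbers, and those used here follow barcode order and pair nothing. Depth limits low genes such as Celsr1 and Ror1, which were at 0 in the 6 cells of Bar6, where 3 UMIs would give 22.3 CPM.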
